A study of Mus musculus with 3 samples.

Results

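Mature dendritic cells (DCs) of the mouse spleen that carried the maturation genes Ccr7 and Fscn1 but had no count of the chemokine genes Ccl17 and Ccl22 are described here. They were chosen barcode by barcode from unique molecular identifier (UMI) counts, that is, counts of distinct captured RNA molecules. A barcode needed 500 or more detected genes, at most 10% mitochondrial UMIs and a leading hashtag at 5 times the next hashtag or more. It also needed 3 or more UMIs of Ccr7 and Fscn1 together, 0 of Ccl17 and Ccl22, at most 1 of Siglech, 0 of Slc4a1 and Alas2 and at most 1 of Cd79a. Of 38717 barcodes, 36904 passed the limits on genes and mitochondrial UMIs, 21547 of these had a clear hashtag, 15042 passed the limits on the plasmacytoid, erythroid and B cell genes, and 4747 had the Ccr7 and Fscn1 counts of mature cells. Of those mature cells, 3402 had no Ccl17 or Ccl22 UMI and are called negative cells below. The other 1345 had 1 or more and are called positive cells.

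The series examined the histone deacetylase inhibitor panobinostat in C57BL/6 mice with and without acute myeloid leukemia. Treatment lasted 2 days, after which spleen cells were taken through a density gradient, sorted for absence of GFP and enriched for DCs by magnetic removal of other cells. The 6 samples were marked with hashtag antibodies and pooled into 1 capture with 3' chemistry, together with antibody tags for CD11c and Siglec-H. Leukemia-bearing mice gave panobinostat samples 1 and 2 and vehicle samples 1 and 2, and wild-type (WT) mice gave 1 panobinostat and 1 vehicle sample. The hashtag names write the drug as LBH, read as panobinostat's development code, and the vehicle as D5W, read as dextrose in water. All samples share the enrichment, so cell types that it removes cannot be compared. Whether each hashed sample came from a separate animal is not stated, so p-values measure the spread between hashed samples only, and WT has 1 sample for each treatment. Negative cells numbered 554 and 330 in leukemia panobinostat 1 and 2, 495 and 147 in leukemia vehicle 1 and 2, 438 in WT panobinostat and 1438 in WT vehicle. Values per sample are given in this order throughout unless the sentence names another.

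Mature DCs are conventional DCs that have switched on a shared programme after a stimulus or during steady-state turnover. CCR7 then guides them towards T cell zones, fascin (Fscn1) bundles the actin of their dendrites, and they stop taking up antigen while raising costimulatory molecules. Conventional DCs of the spleen come in type 1 (cDC1, marked by Xcr1 and Clec9a, which excel at cross-presenting antigen to CD8 T cells) and type 2 (cDC2, marked by Sirpa, presenting mainly to CD4 T cells). CCL17 and CCL22 are ligands of CCR4, a receptor of regulatory and helper T cells, and are made by a portion of mature DCs.

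The negative cells held 26283584 UMIs in all and had a median of 5061.5 UMIs per cell. Their sample medians ran from 4591 to 6062, and their summed UMIs from 1096544 in leukemia vehicle 2 to 10319166 in WT vehicle. Positive cells were deeper, with a median of 7033. A count of 0 therefore selects in part on depth. Negative cells made up 85.6% of mature cells under 2000 UMIs, 73.9% at 4000 to 6000 UMIs and 53.5% above 20000. Every barcode was unique within the capture. Free RNA was present: red cell precursors (5 or more UMIs of Slc4a1 and Alas2, 768 barcodes, median 16850 UMIs) carried Ccr7 at 90.5 CPM (counts per 1000000 UMIs), and 21.5% of them had 3 or more UMIs of Ccr7 and Fscn1. In cells with 5 or more Siglech UMIs (3871 barcodes, median 5642), 7.34% did. Hashtags remove doublets between samples but not those within a sample, and no doublet caller was run. UMIs were counted at the 3' end of transcripts, so CPM carry no length term.

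Mature DC markers that the rule does not name are given here to describe the label. The 2 gates set beside the negative cells hold no Ccr7 or Fscn1 UMI. Genes that go with Ccr7 and Fscn1 are therefore low there in part by choice of cells, so this is no independent check. All values in this paragraph describe the gate and carry no test. Ccl5, which encodes an inflammatory chemokine, stood at 6753 CPM in the negative cells. Cells without Ccr7 and Fscn1 that carried 2 or more Xcr1 and Clec9a UMIs and no Sirpa or Cd209a (the cDC1 gate, 3067 cells, median 11567 UMIs) had 102.7 CPM. Cells without Ccr7 and Fscn1 that carried 2 or more Sirpa and Cd209a UMIs, 1 or more of Flt3 and no Xcr1 or Clec9a (the cDC2 gate, 422 cells, median 6678.5 UMIs) had 488.9 CPM. Fabp5, a fatty acid carrier, stood at 909.2 CPM in negative cells, against 15.1 in the cDC1 gate and 148.5 in the cDC2 gate. H2-M2, a nonclassical MHC class I gene, had 243.6 CPM, against 1.9 and 17.1 in these gates. Tnfrsf4, the gene of the costimulatory receptor OX40, had 134.9 CPM, against 2.2 and 2.8. The 8 mature DC markers outside the rule summed to 9246 CPM in negative cells (5987 to 12970 over samples), against 157.4 in the cDC1 gate and 732.1 in the cDC2 gate, with Ccl5 supplying most of the sum. In positive cells, which meet the same Ccr7 and Fscn1 limit, the sum was 6714 CPM (5792 to 7848).

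**Figure D1:**
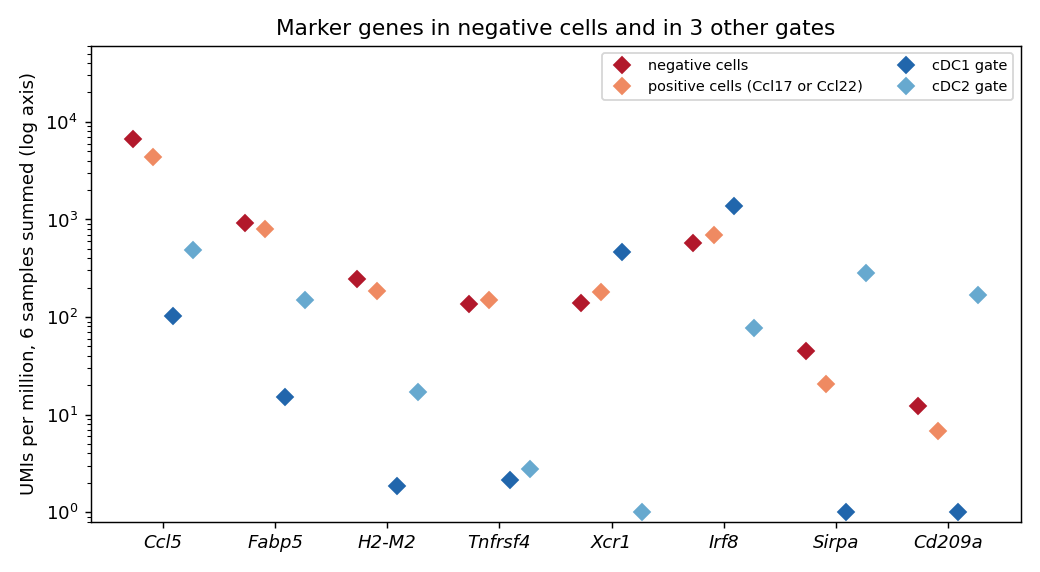
CPM (log axis, values under 1 drawn at 1) of marker genes in negative cells, positive cells, the cDC1 gate and the cDC2 gate; genes set to 0 by a gate's own rule sit at the bottom. Ccl5, Fabp5, H2-M2 and Tnfrsf4 lie at 6753, 909.2, 243.6 and 134.9 CPM in negative cells and lower in both gates without Ccr7 and Fscn1.

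Markers of other lineages were summed in the same way. The 14 cDC1 markers gave 2536 CPM in negative cells (2017 to 3538), against 3105 in positive cells and 6004 in the cDC1 gate. The 14 cDC2 markers gave 605.8 CPM in negative cells (458.9 to 713), against 396.5 in positive cells and 1718 in the cDC2 gate. Both conventional DC programmes were measurable in the pool. T cell markers (13 genes) summed to 112.7 CPM (65.5 to 161.4), B cell markers (7 genes) to 46.2 CPM (27.8 to 52.7), NK cell markers (7 genes) to 33.7 CPM and neutrophil markers (8 genes, 2 of them at 0) to 2.70 CPM. Macrophage markers (9 genes) reached 212.6 CPM in WT panobinostat and 111.2 in WT vehicle, and 78.6 to 94.5 in the leukemia samples. Erythroid markers (5 genes) summed to 1534 to 4013 CPM, which is in large part hemoglobin. The part of these other transcripts in the results below was not tested.

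Negative cells differed widely among themselves in how far they carried the mature programme. Cells were binned by Ccr7 and Fscn1 UMIs per 1000000. Because 3 UMIs were required, a cell under 300 per 1000000 must hold more than 10000 UMIs, so the low bins are deep by construction. The 174 cells under 300 per 1000000 had a median of 20910 UMIs, a mature marker sum of 1040 CPM and a cDC1 marker sum of 4403 CPM. The 721 cells at 2000 to 3000 per 1000000 had 16600 CPM of mature markers and 1483 of cDC1 markers. The 265 cells at 5000 per 1000000 or more had a median of 3849 UMIs, 20760 CPM of mature markers and 1614 of cDC1 markers. Along the bins the MHC class II genes H2-Aa, H2-Ab1 and Cd74 together stood at 30720 CPM in the lowest bin and 10260 in the highest. Ccl5 stood at 636.7 CPM in the lowest and 16100 in the highest, and the proliferation genes Mki67, Top2a and Pclaf at 554.3 and 44.8 CPM. The median CD11c antibody tag was 4477 in the lowest bin and 941 in the highest. In the lowest bin, Ccl5 was close to the 664.9 CPM of the red cell precursors, so the mature label is weakest there. Of all negative cells, 844 (24.8%) lay under 1000 per 1000000 and 2558 (75.2%) at or above it. Results that follow were also computed on the 2558 cells alone, an alternative added after the data were seen.

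**Figure D2:**
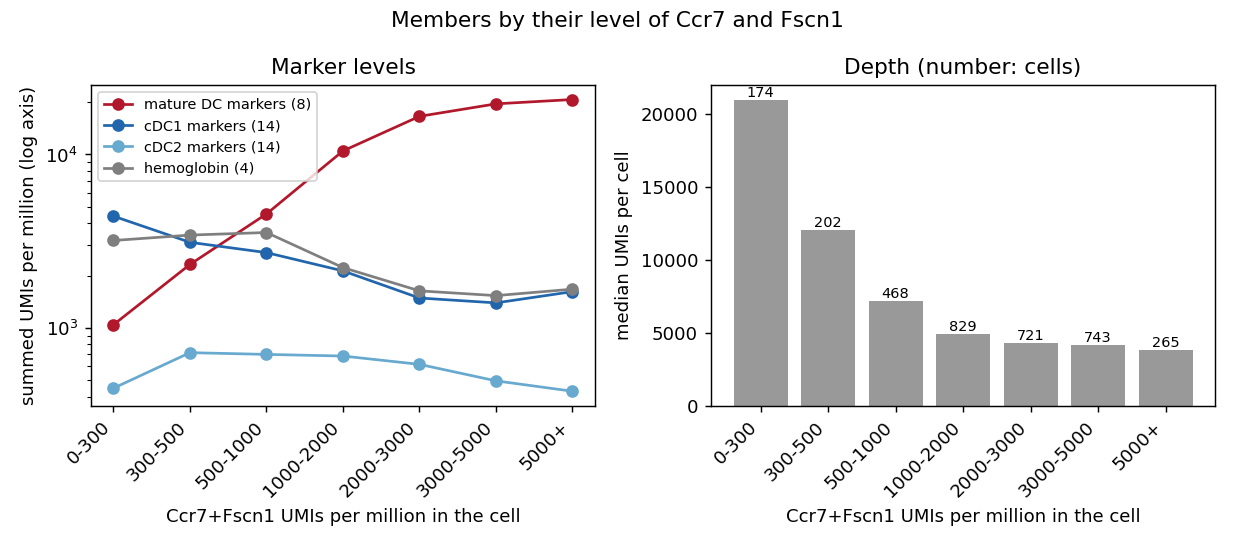
Summed marker levels (CPM) and median UMIs per cell of negative cells in bins of Ccr7 and Fscn1 UMIs per 1000000. Mature markers stand at 1040 in the lowest bin and 20760 in the highest, while cDC1 markers stand at 4403 and 1614 and the median depth at 20910 and 3849 UMIs.

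At the edges of the rule, the 345 negative cells with exactly 3 UMIs of Ccr7 and Fscn1 had 3028 CPM of mature markers, and the 524 barcodes with 2 UMIs that otherwise passed had 1506. Il12b, the gene of the shared p40 subunit of IL-12 and IL-23, stood at 69.6 CPM in cells with no Ccl17 or Ccl22 UMI, 163.8 with 1, 236.4 with 2 and 319.9 with 3 or more. Ccl5 ran the other way, at 6753, 5072, 4048 and 3853 CPM. Negative cells with a hashtag ratio of 5 to 6 (145 cells) had 6548 CPM of mature markers, against 6942 in 182 barcodes at 4 to 5 that the rule leaves out.

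Within the 2558 negative cells at or above 1000 per 1000000, cDC1 markers divided the pool. Cells with 10 or more cDC1 marker UMIs per 10000 numbered 1465 (57.3%, exact binomial 95% interval 55.3 to 59.2%, counting error only), and 1093 had fewer. The 10 per 10000 limit lies near the median of 11.6 over all negative cells, so these are ranges of a score and not types. The cDC1-rich share was 55.1% and 54.2% in leukemia panobinostat 1 and 2 and 51.8% and 54.5% in leukemia vehicle 1 and 2, against 59.7% in WT panobinostat and 60.7% in WT vehicle. The 4 leukemia shares all lay below the 2 WT shares. Counting intervals cover cells within a sample and not the spread between samples. Those of leukemia vehicle 1 (46.7 to 56.7%) and WT vehicle (57.65 to 63.7%) did not overlap. The WT vehicle interval overlapped those of the other leukemia samples, and that of WT panobinostat (54.1 to 65.2%) overlapped those of all leukemia samples. Among positive cells at the same level the share was 63.0% (59.99 to 66.0%).

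The 2 ranges differed in more than the markers that split them, given here as a description without a test. Ccl3 and Ccl4, which encode the inflammatory chemokines MIP-1α and MIP-1β, stood at 434.0 and 810.8 CPM in cDC1-poor cells, against 166.4 and 291.6 CPM in cDC1-rich cells. Zeb2, a transcription factor that in mice favours plasmacytoid DC and cDC2 over cDC1 development, had 471.2 CPM in cDC1-poor and 174.9 in cDC1-rich cells. Il1b, the gene of the inflammatory cytokine IL-1β, had 260.9 against 108.8 CPM, and Fabp5 2039 against 964.3 CPM. All 5 genes were higher in cDC1-poor cells in 6 of 6 samples. Cxcl9, a CXCR3 ligand gene, had 28.7 CPM in cDC1-poor and 163.6 in cDC1-rich cells. Cst3, the cystatin C gene, had 4243 against 13980 CPM, and Il12b 63.9 against 134.1 CPM. None of these 3 was higher in cDC1-poor cells in any sample. Red cell genes differed as well, with Car1 at 113.9 CPM in cDC1-poor and 32.9 CPM in cDC1-rich cells and the hemoglobin gene Hbb-bs at 1790 CPM in cDC1-poor and 884.6 CPM in cDC1-rich cells, both higher in cDC1-poor cells in 6 of 6 samples. Hbb-bt had 182.5 CPM in cDC1-poor and 76.1 CPM in cDC1-rich cells and was higher in cDC1-poor cells in 4 of 6. The cell cycle genes Stmn1 (284.5 against 110.6 CPM) and Top2a (92.4 against 41.9 CPM) were higher in cDC1-poor cells in 6 of 6 samples. The part of red cell transcripts in the other differences was not tested.

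Negative cells were then compared with positive cells of the same sample, the most alike cells of the series, by edgeR's quasi-likelihood test on UMI sums with the sample as a block. The 8 genes that the rule names were left out. Of 10343 genes tested, 1334 passed a Benjamini-Hochberg adjusted p of 0.05, which is 12.9% of genes, with 628 higher (6.07%) and 706 lower (6.83%) in negative cells. Negative cells had more Ccl3 and Ccl4, the membrane proteins Ms4a4c, Ms4a6c and Ms4a6b and Zeb2. They had less Il12b, the costimulatory receptor gene Cd40 and Serpinb9, which encodes a granzyme B inhibitor.

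The promoters of 3 chemokine and cytokine genes that mark the split are shown as sequence context: Ccl22, which defines it, Il12b, which fell most among the 12 genes named by size, and Ccl3, the chemokine gene that rose most. Each runs from 250 bases before to 50 bases after the RefSeq start (GRCm38.p6). Capitals mark the PU.1 core GAGGAA and GGGGANTT, which is only a partial NF-kB motif, on either strand. Ccl22 lies at chr8:94745434-94745733 on the plus strand, Il12b at chr11:44399813-44400112 on the plus strand and Ccl3 at chr11:83649329-83649628 on the minus strand.
Ccl22: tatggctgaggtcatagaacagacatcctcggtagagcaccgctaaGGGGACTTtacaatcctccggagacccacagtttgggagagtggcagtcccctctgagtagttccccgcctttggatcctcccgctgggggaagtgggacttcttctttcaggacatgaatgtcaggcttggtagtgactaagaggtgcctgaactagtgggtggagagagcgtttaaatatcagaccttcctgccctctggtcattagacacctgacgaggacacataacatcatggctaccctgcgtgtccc
Il12b: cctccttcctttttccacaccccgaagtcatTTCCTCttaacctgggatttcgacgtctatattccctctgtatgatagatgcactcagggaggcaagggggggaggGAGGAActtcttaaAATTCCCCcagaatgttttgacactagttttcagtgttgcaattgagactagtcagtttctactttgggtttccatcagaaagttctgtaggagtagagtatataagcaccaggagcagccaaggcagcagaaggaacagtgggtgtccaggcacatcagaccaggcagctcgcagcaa
Ccl3: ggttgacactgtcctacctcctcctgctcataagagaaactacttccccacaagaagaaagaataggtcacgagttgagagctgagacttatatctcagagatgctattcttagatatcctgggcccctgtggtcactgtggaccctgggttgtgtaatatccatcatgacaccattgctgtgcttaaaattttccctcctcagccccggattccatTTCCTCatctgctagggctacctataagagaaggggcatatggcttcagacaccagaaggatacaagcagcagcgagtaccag
The Ccl22 window held 0 PU.1 cores and 1 partial NF-kB motif, the Il12b window 2 and 1, and the Ccl3 window 1 and 0. Over 32851 mouse promoters of this length, 28.3% held a PU.1 core and 4.1% the partial NF-kB motif. A match of letters is not a binding site, and none was tested here.

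Il12b fell most among the 12 genes named by size, which needed 20 CPM or more. Its level was 79.3, 86.6, 106.5, 59.3, 52.9 and 58.0 CPM in negative cells of the 6 samples, against 351.1, 226.9, 301.9, 369.8, 209.9 and 203.3 CPM in positive cells. No negative value reached a positive one. The log2 fold change was -1.96 (SE 0.09, edgeR adjusted p = 1.3e-13). It was -1.53 among cells of 4000 to 10000 UMIs and -1.79 among cDC1-rich cells, but -0.34 among cDC1-poor cells, where the edgeR adjusted p was 0.54. Red cell precursors carried 14.4 CPM of Il12b, below every sample of either class.

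Ccl3 stood at 319.2, 277.8, 303.2, 219.8, 70.4 and 89.2 CPM in negative cells, against 78.9, 41.5, 16.3, 16.9, 32.9 and 39.5 CPM in positive cells. Negative cells were higher in 6 of 6 samples, and WT panobinostat was the only negative value below the highest positive one. The log2 fold change was 1.96 (SE 0.20, edgeR adjusted p = 1.5e-07). Ccl4 stood at 626.3, 575.9, 453.9, 427.7, 114.4 and 157.6 CPM, against 103.1, 158.1, 67.9, 10.1, 77.0 and 73.0 CPM. Its log2 fold change was 1.78 (SE 0.22, edgeR adjusted p = 1.8e-06). The values for Ccl3 and Ccl4 were 2.52 and 2.54 among cDC1-rich cells, 1.96 and 1.84 among cDC1-poor cells, and 1.93 and 1.78 at 4000 to 10000 UMIs. Cells with 5 or more Siglech UMIs carried 38.3 CPM of Ccl3 and 273.6 of Ccl4, and red cell precursors 17.9 and 53.5.

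Ryr3, which encodes an intracellular calcium channel, had the largest rise among the genes named, at 53.5, 32.3, 56.2, 65.7, 15.6 and 67.9 CPM in negative cells, against 7.43, 3.72, 12.9, 3.38, 4.51 and 13.4 CPM in positive cells. The log2 fold change was 2.35 (SE 0.15, edgeR adjusted p = 5.4e-11). The other named genes that rose were 2610528A11Rik (log2 1.88), the mouse gene for the GPR15 ligand, Ms4a4c (1.84), the growth factor gene Mdk (1.66), the adhesion receptor gene Adgrg6 (1.46), Ms4a6c (1.45), Crispld2 (1.43), the stress protein gene Nupr1 (1.36), Ms4a6b (1.33) and Zeb2 (1.33). All 12 named genes that rose, Ccl3, Ccl4 and Ryr3 included, kept their direction and passed in 19 of 19 alternative settings. Those that fell beside Il12b were the chaperone gene Clu (-1.41), the membrane-binding Anxa2 (-1.11), the scaffold gene Ahnak (-1.11), Fam26f (-0.97), Nudt9 (-0.91), Serpinb9 (-0.91), Cd40 (-0.90), the actin regulators Lima1 (-0.89) and Fnbp1l (-0.88), Cmc2 (-0.85) and Crip1 (-0.85). Of these, Fam26f turned to 0.56 among cDC1-poor cells.

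**Figure D3:**
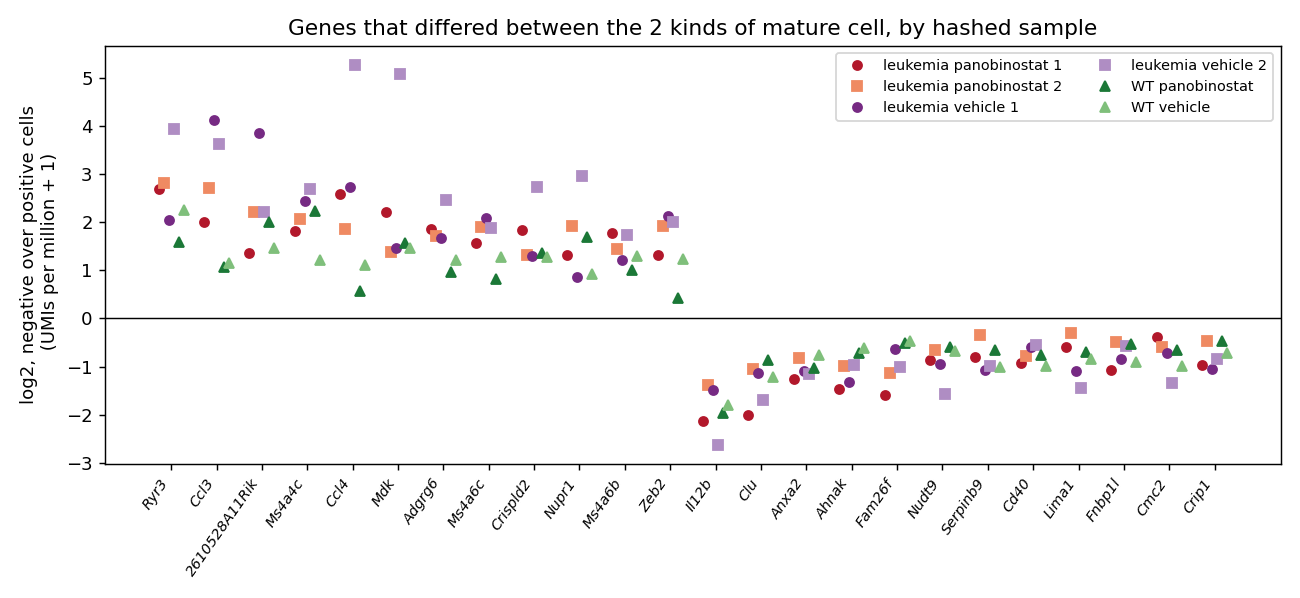
Log2 ratio of negative over positive cells (CPM + 1) in each of the 6 samples (points) for the 12 named genes that rose and the 12 that fell. Every sample lies on the same side of 0 for each gene, with Ryr3 and Ccl3 fitted at 2.35 and 1.96 and Il12b at -1.96.

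Groups of genes moved unevenly, read against the 12.9% of all genes called and a median log2 fold change of 0.0027 over all genes tested. Of 18 costimulation and checkpoint genes, 7 fell and 1 rose (median -0.23). Cd40 had 128.5, 127.2, 126.8, 151.4, 81.7 and 92.8 CPM in negative cells, against 246.1, 219.5, 192.7, 222.9, 138.4 and 185.9 CPM in positive cells, and positive cells were higher in every sample. Cd70, the CD27 ligand gene, fell by 2.005 on the log2 scale (SE 0.24), the adhesion ligand gene Pvr by 0.83 and the CD28 ligand gene Cd86 by 0.42. The Cd86 call was lost in 4 of 19 alternative settings, among them cells thinned to 2000 UMIs and cells of 4000 to 10000 UMIs. The ligand gene Icosl rose by 0.30. Of 15 genes of MHC class I and its peptide supply, 12 fell and none rose (median -0.28), among them the proteasome genes Psmb8 (-0.40) and Psme1 (-0.37). Of 13 MHC class II genes, 7 fell and 3 rose (median -0.23), and H2-Ab1, at -0.29, turned to 0.08 among cDC1-poor cells and 0.09 at 4000 to 10000 UMIs.

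Chemokine and cytokine genes divided. Of 12 chemokine genes, Ccl3, Ccl4 and Ccl5 rose, and Cxcl9 (-0.80), Cxcl1 (-1.84), Cxcl2 (-0.96) and Cxcl16 (-0.34) fell. Ccl5 rose by 0.57 (SE 0.07), but its log2 fold change was 0.02 at 4000 to 10000 UMIs (edgeR adjusted p = 0.91) and 0.22 among cDC1-poor cells (edgeR adjusted p = 0.074). Of 12 cytokine genes, Lta (1.36), Il6 (1.15), Ltb (0.86) and Il1b (0.77) rose, while Il12b and Il15 (-0.25) fell. Lta and Ltb encode the lymphotoxin subunits. Il6 rested on 108 UMIs in negative cells.

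Markers of the conventional lineages went in opposite directions. Of 14 cDC1 markers, 12 fell and none rose (median -0.48), among them Ly75 (-0.66), Cd8a (-0.65) and Xcr1 (-0.49). Of 14 cDC2 markers, 8 rose and 2 fell (median 0.60), among them Clec4a4 (1.52), Cd4 (1.35), Sirpa (0.998), Cd7 (0.98) and Esam (0.70). With all samples summed, the negative pool held more cDC2 and less cDC1 marker RNA than the positive pool. In WT panobinostat, however, cDC1 markers summed to 3538 CPM in negative and 3448 CPM in positive cells. Xcr1 no longer passed at 4000 to 10000 UMIs or without other-lineage cells. Its weakest log2 value over 18 alternative settings was -0.06. Macrophage markers also moved, with 4 of 8 higher and none lower, Adgre1 (1.02) and C1qb (1.33) among them. So did the B cell gene Cd79b (1.38, 1 of 2 tested), the T cell gene Tcf7 (1.17, 1 of 4) and the plasma cell gene Jchain (1.05, 1 of 1), of cell types that the enrichment aims to remove. The NK cell gene Klrk1 went the other way (-0.35, 1 of 2). Their part in the other differences was not tested, and without cells holding 2 or more UMIs of other lineages and the top 5% of UMI totals, which removed 1696 of the 3402, 815 genes passed.

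Of 24 cell cycle genes, 10 rose and none fell in negative cells (median 0.24), among them Top2a (0.53), Rrm2 (0.49) and Stmn1 (0.47). Among cDC1-rich cells, Top2a, Stmn1 and Pclaf no longer passed and Birc5 turned to -0.018. Of 39 interferon-stimulated genes, 9 rose and 2 fell (median 0.09), among them Ifit3b (2.37, from 55 UMIs in negative cells), Ifit3 (1.45) and Rsad2 (1.02). Ifit3 and its near copy Ifit3b may share reads, so both values are uncertain. Of 20 cholesterol and lipid genes, 8 fell and none rose (median -0.30). The same held for 8 of 18 endoplasmic reticulum genes (median -0.22) and 6 of 15 glycolysis genes (median -0.16). Of 19 NF-kB genes, 4 rose and 1 fell (median 0.06), and Nfkbiz, an inducible co-regulator, rose by 0.74. Of the 8 mature DC markers outside the rule, only Ccl5 passed. Without TMM scaling the median of all genes moved to 0.10 and 1530 genes passed, with 76.0% of them higher in negative cells in place of 47.1%, so directions of small changes depend on that scaling.

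The antibody tags, which the rule does not use, were compared as sample medians. CD11c, an integrin of DCs, had median tag counts of 1410, 1334, 1472, 1534, 1359 and 1566 in negative cells, against 1066, 1172, 1222, 1624, 1224 and 1665 in positive cells. The means were 1446 ± 94.2 and 1329 ± 251.5 (SD, n = 6 each), and negative cells were higher in 4 of 6 samples. The difference of 116.9 gave p = 0.1875 in an exact two-sided permutation of paired signs (adjusted over the 2 tags, 0.28). Among cells of 4000 to 10000 UMIs it was 554.3, with negative cells higher in 6 of 6 samples and an exact p of 0.03125, the smallest that 6 pairs allow. The cDC1 gate had sample medians of 2365 to 2988. Siglec-H, a plasmacytoid DC lectin, had medians of 240.5 to 249 in negative cells and 239.5 to 253 in positive cells, with a difference of -2.33 (exact permutation p = 0.28).

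The share of negative cells among mature cells was 72.5%, 71.9% and 59.7% in leukemia panobinostat 1 and 2 and WT panobinostat, against 82.1%, 75.0% and 72.2% in leukemia vehicle 1 and 2 and WT vehicle. The exact binomial 95% intervals ran from 56.0 to 63.2% in WT panobinostat up to 78.8 to 85.1% in leukemia vehicle 1. Within leukemia both panobinostat samples lay below both vehicle samples, and in WT the panobinostat sample lay below the vehicle sample, but leukemia panobinostat 1 lay above WT vehicle. The means were 68.0 ± 7.24% with panobinostat and 76.4 ± 5.09% with vehicle (SD, n = 3 each), a difference of -8.41 percentage points with p = 0.2 in an exact two-sided permutation test, for which 0.1 is the smallest p. Without WT panobinostat the difference was -4.23 points. Of all cells that passed the quality and hashtag limits, negative cells made up 17.8%, 15.5% and 14.6% with panobinostat and 14.2%, 10.97% and 17.0% with vehicle, a difference of 1.92 points (exact permutation p = 0.4, adjusted over both shares 0.4). The ranges overlapped. That difference was 0.39 without leukemia vehicle 2, 3.39 without WT vehicle and 3.02 with thinned cells, where the exact permutation p was 0.1. Thinned to 2000 UMIs per cell, the share among mature cells was 83.9%, 81.6% and 77.7% with panobinostat and 90.9%, 87.8% and 83.5% with vehicle (difference -6.32, exact permutation p = 0.2).

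The fit over the 6 samples held disease and treatment as terms. Of 10165 genes tested, 224 passed in leukemia over WT (2.2%), with 122 higher (1.2%) and 102 lower (1.0%), by edgeR's quasi-likelihood test with Benjamini-Hochberg adjustment. Negative cells of leukemia-bearing mice had more of the chemokine genes Ccl3, Ccl4 and Ccl5 and the cytokine genes Lta, Il6, Tnf and Il27. They had less of 6 of 13 MHC class II genes, 4 of 14 cDC1 markers, Apoe and Cd36, while none of 21 cholesterol and lipid genes passed (edgeR). WT rested on 1 panobinostat and 1 vehicle sample. The count was 87 without WT panobinostat, 382 without WT vehicle and 109 without leukemia vehicle 1, so the number of genes depends on these samples.

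Ccl4 stood at 626.3 and 575.9 CPM in leukemia panobinostat 1 and 2 and 453.9 and 427.7 CPM in leukemia vehicle 1 and 2, against 114.4 CPM in WT panobinostat and 157.6 CPM in WT vehicle. The lowest leukemia sample was above the highest WT sample. The means were 521 ± 95.4 CPM in leukemia (SD, n = 4) and 136 ± 30.5 CPM in WT (SD, n = 2), with a log2 fold change of 1.84 (SE 0.16, edgeR adjusted p = 6.1e-05). Ccl3 averaged 280 ± 43.6 CPM in leukemia and 79.8 ± 13.3 CPM in WT, with sample values as listed above and no overlap (log2 1.74, SE 0.15, edgeR adjusted p = 5.8e-05). Among cDC1-rich negative cells these changes were 1.57 for Ccl4 and 1.36 for Ccl3, and among cDC1-poor cells 1.87 and 1.86. In positive cells, Ccl3 stood at 78.9, 41.5, 16.3 and 16.9 CPM in leukemia and 32.9 and 39.5 CPM in WT, and the difference between the classes in this effect was not tested.

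Ccl5 stood at 8405, 7939, 10120 and 8567 CPM in leukemia panobinostat 1 and 2 and leukemia vehicle 1 and 2, against 4184 CPM in WT panobinostat and 5697 CPM in WT vehicle. The groups did not overlap (log2 0.77, SE 0.07, edgeR adjusted p = 6.6e-05). Its change was 0.44 among cells at or above 1000 Ccr7 and Fscn1 UMIs per 1000000. These made up 74.8 to 81.95% of negative cells in leukemia samples and 71.5% and 71.0% in WT panobinostat and WT vehicle. Fabp5, at 1262, 753.7, 1112 and 1336 CPM in leukemia and 580.8 and 860.5 CPM in WT, overlapped between the groups and did not pass (log2 0.58, edgeR adjusted p = 0.092). Tnfrsf4, at 101.1 to 128.9 CPM in leukemia and 143.1 and 149.1 CPM in WT, did not pass either (log2 -0.37, edgeR adjusted p = 0.095). Ccr7 and Fscn1, which the rule uses, stood at 1020 to 1269 and 581.8 to 719.3 CPM in leukemia, and at 824.6 and 988.5, and 482.2 and 543.8 CPM, in WT panobinostat and WT vehicle, given as levels only.

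Wfdc21, a secreted WAP-domain protein gene, rose most among the named genes. It stood at 44.97, 55.01, 20.04 and 42.86 CPM in the leukemia samples, against 3.58 and 3.20 CPM in WT (log2 3.33, SE 0.29, edgeR adjusted p = 6.1e-05). Lta, the lymphotoxin alpha gene, had 43.4, 41.95, 55.9 and 56.5 CPM in leukemia, against 6.53 and 16.2 CPM in WT (log2 2.04, SE 0.18). No WT sample of either gene reached a leukemia sample. Ighg2b, an antibody heavy chain gene, had 27.1, 17.2, 37.1 and 35.6 CPM in leukemia, against 4.64 and 7.37 CPM in WT (log2 2.23). It is a gene of B lineage cells, whose 7 markers summed to 46.4 to 52.7 CPM in leukemia and 27.8 and 49.7 CPM in WT panobinostat and WT vehicle, and the part of free antibody transcripts was not tested. Ms4a4c had 125.6, 119.3, 122.0 and 135.9 CPM in leukemia, against 34.1 and 43.8 CPM in WT (log2 1.61). The other named genes that rose were Kctd14 (2.01), Ms4a7 (1.97), Fam89a (1.67) and the serpin gene Serpina12 (1.503). Of the 10 that rose, 9 passed in 17 of 17 alternative settings, Serpina12 in 15.

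**Figure D4:**
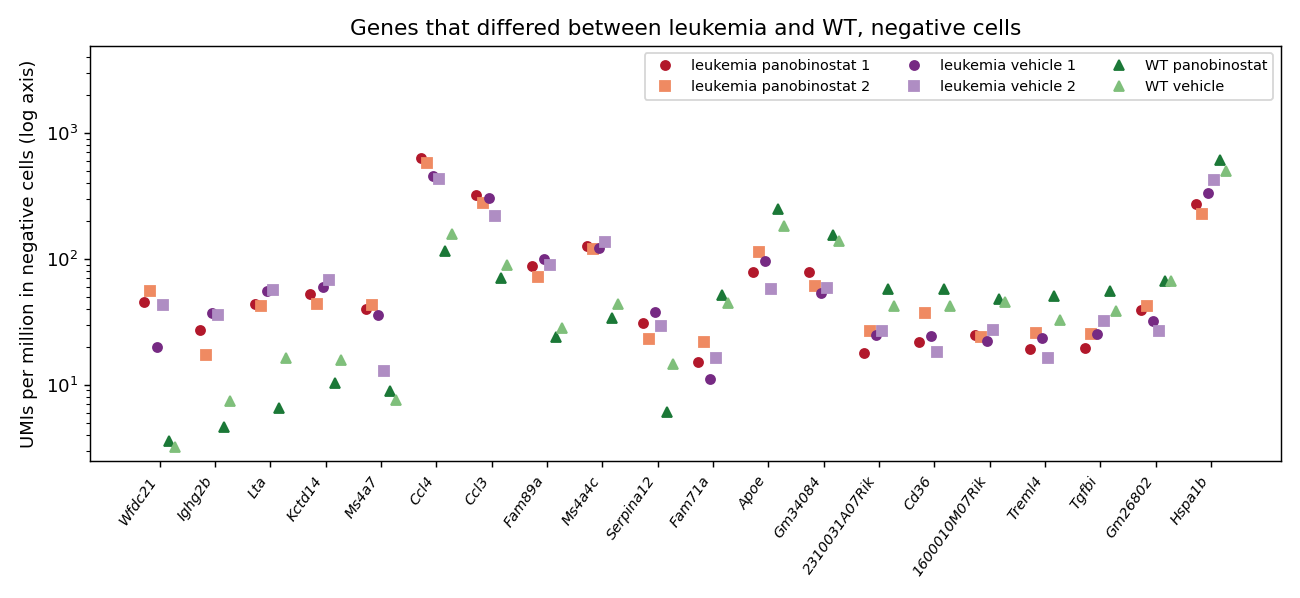
CPM (log axis) in negative cells of each sample for the 10 named genes that rose and the 10 that fell in leukemia over WT, with leukemia samples left of WT samples. Ccl4 lies at 427.7 to 626.3 in leukemia and 114.4 and 157.6 in WT, and Apoe at 57.5 to 112.4 and 182.2 and 247.5.

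Apoe, which encodes a lipid carrier, had 78.3, 112.4, 96.3 and 57.5 CPM in leukemia panobinostat 1 and 2 and leukemia vehicle 1 and 2, against 247.5 and 182.2 CPM in WT panobinostat and WT vehicle (log2 -1.35, SE 0.16, edgeR adjusted p = 0.00052). Hspa1b, a heat shock protein 70 gene, had 272.9, 228.3, 329.8 and 420.4 CPM, against 606.5 and 497.9 CPM (log2 -0.94). Neither gene overlapped between the groups. The other named genes that fell were Fam71a (-1.71), Gm34084 (-1.30), 2310031A07Rik (-1.15), the scavenger receptor gene Cd36 (-1.04), 1600010M07Rik (-1.02), the receptor gene Treml4 (-1.004), the matrix protein gene Tgfbi (-0.999) and Gm26802 (-0.98). Of the 10 that fell, Fam71a passed in 17 of 17 settings, but Tgfbi in 11 of 16, Cd36 and Treml4 in 12 of 16 and 2310031A07Rik in 13 of 16, and these 4 were lost without WT panobinostat. Hspa1b passed in 15 of 17 and was likewise lost without WT panobinostat, and also with DESeq2. Gm34084 turned to 0.24 among cDC1-poor cells, where Apoe did not pass either (-0.31, edgeR adjusted p = 0.92). Of 8 macrophage markers, 4 fell as well, C1qb (-3.19), C1qc (-3.11), the iron exporter gene Slc40a1 (-4.01) and Hmox1 (-1.57), with macrophage marker sums of 78.6 to 94.5 CPM in leukemia and 212.6 and 111.2 CPM in WT. C1qb rested on 270 UMIs.

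By gene group, against 1.2% of all genes higher and 1.0% lower and a median of 0.01, 4 of 11 chemokine genes rose and none fell. Ccl9 was the fourth (log2 1.20). Of 12 cytokine genes, 5 rose and none fell. Tnf had 108.6, 92.2, 89.4 and 93.9 CPM in leukemia, against 39.6 and 57.0 CPM in WT (log2 0.92, SE 0.15), and Il1b rose by 0.73. Il6 had 8.01, 5.50, 7.48 and 12.8 CPM, against 1.26 and 1.55 CPM (log2 2.42, SE 0.36), from 108 UMIs in all. Il27 rose by 1.26, although among cDC1-poor cells its value was -0.52. Of 11 regulatory enzyme and SOCS genes, 3 rose, the cytokine signalling inhibitors Socs3 (1.10) and Socs2 (0.48) and the death receptor gene Fas (0.65). These calls were fragile, since Socs2 was lost in 10 of 17 settings (down to 0.14), Fas in 6 (down to 0.23) and Socs3 in 5 (down to 0.63), and all 3 were lost without WT panobinostat and without leukemia vehicle 1. Of 19 NF-kB genes, only Nfkbiz passed (0.93), and 89.5% had a positive value, against 52.1% of all genes tested. Of 17 costimulation genes, Cd40 rose (0.53) and the checkpoint receptor gene Havcr2 fell (-0.81). Cd40 had 128.5, 127.2, 126.8 and 151.4 CPM in leukemia, against 81.7 and 92.8 CPM in WT, and its call was lost in 8 of 17 settings, among them those without leukemia panobinostat 2, leukemia vehicle 2 or WT panobinostat.

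Of 13 MHC class II genes, 6 fell and none rose (median -0.28). H2-Aa had 5399, 5259, 4507 and 4525 CPM in leukemia panobinostat 1 and 2 and leukemia vehicle 1 and 2, against 5957 and 5776 CPM in WT panobinostat and WT vehicle (log2 -0.33, SE 0.05). H2-Ab1 fell by 0.34, the invariant chain gene Cd74 by 0.33, H2-Eb1 by 0.28, and the peptide loading genes H2-Ob by 0.70 and H2-DMa by 0.42. H2-Ob was lost in 8 of 17 settings. Among cells at or above 1000 per 1000000, H2-Ab1 was at -0.26 (edgeR adjusted p = 0.48). H2-Aa and Cd74 no longer passed at that level either, and H2-Ab1, H2-Aa and Cd74 did not pass among cDC1-poor cells. H2-Ab1 was also lost among cDC1-rich cells and with cells thinned to 2000 UMIs. Of 14 cDC1 markers, Clec9a (-0.84), Ppt1 (-0.77), Wdfy4 (-0.75) and Cadm1 (-0.70) fell and none rose (median -0.42). Of 37 interferon-stimulated genes, 6 rose and none fell (median 0.41, 89.2% positive, against 52.1% of all genes tested). Among those that rose were Ifit1bl1 (1.78), Ly6c2 (0.81), Isg15 (0.67) and Gbp2 (0.64). Gbp2 was lost in 9 of 17 settings and Ifit1bl1, which rested on 87 UMIs, in 6 of 15. Of 24 cell cycle genes none passed. Without TMM scaling 243 genes passed, with 67.1% of them higher in place of 54.5%.

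Markers of other cells that moved with leukemia were Cd79b (B cell, log2 1.30), Cd8b1 (T cell, 1.34), Klrk1 (NK cell, 0.74), Tcf4 (plasmacytoid DC, 0.83) and Kdr (endothelium, 2.42). The 13 T cell markers summed to 136.0, 94.9, 138.2 and 161.4 CPM in leukemia, against 65.5 and 117.2 CPM in WT. The 7 NK cell markers summed to 40.7 to 48.6 CPM in leukemia, against 31.0 and 22.3 CPM in WT. Without cells carrying 2 or more UMIs of other lineages and the top 5% of UMI totals, 224 genes passed, 134 of them shared with the fit of all negative cells, and Ccl3, Ccl4, Ccl5, Lta and Wfdc21 were among the genes that held in every alternative run.

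Few genes passed the threshold for panobinostat in negative cells, which does not show that few changed. Of 10165 genes, 12 passed against vehicle (0.118%), 10 higher (0.0984%) and 2 lower (0.0197%), by edgeR's quasi-likelihood test with Benjamini-Hochberg adjustment, and 1093 (10.8%) had an unadjusted p under 0.05. Higher were the CXCR3 ligand gene Cxcl10, the interferon-inducible Ifi205, Cd8a, the phosphatase gene Dusp2, Cst3, the mitochondrial protein gene Tspo, H2-Ab1 and Tmsb4x. Lower were 2610528A11Rik and the carbonic anhydrase gene Car2. These calls were unstable. The count was 0 without leukemia panobinostat 2, 1 without either leukemia vehicle sample, 413 without leukemia panobinostat 1, 20 without either WT sample, 0 at a hashtag ratio of 10 and 0 without TMM scaling. DESeq2 called 19.

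Cxcl10 had 40.3, 59.1 and 43.0 CPM in leukemia panobinostat 1 and 2 and WT panobinostat, against 27.2, 28.3 and 21.0 CPM in leukemia vehicle 1 and 2 and WT vehicle. The 3 panobinostat samples lay above the 3 vehicle samples (log2 0.99, SE 0.16, edgeR adjusted p = 0.036). Without other-lineage cells the value was -0.05, and among cDC1-rich cells -0.14. Ifi205 had 121.0, 170.9 and 175.7 CPM with panobinostat, against 93.0, 80.2 and 90.9 CPM with vehicle (log2 0.89, SE 0.13, edgeR adjusted p = 0.036). Cd8a, in DCs a cDC1 marker, had 226.9, 289.8 and 351.8 CPM, against 196.8, 157.8 and 212.5 CPM (log2 0.67, SE 0.11, edgeR adjusted p = 0.046). In all these genes the groups did not overlap.

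Dusp2 had 297.5, 295.7 and 298.5 CPM with panobinostat, against 233.0, 180.6 and 198.4 CPM with vehicle (log2 0.60, SE 0.10). Cst3 had 12470, 16300 and 20470 CPM, against 10910, 10660 and 12640 CPM (log2 0.58, SE 0.08), and leukemia panobinostat 1 fell just under WT vehicle. Tspo had 691.2, 809.0 and 536.4 CPM, against 529.0, 562.7 and 407.2 CPM (log2 0.51), with the WT panobinostat sample inside the range of the vehicle samples. H2-Ab1 had 4611, 4817 and 5409 CPM, against 3727, 3827 and 4807 CPM (log2 0.34), higher within leukemia and within WT, and the change was 0.04 among cDC1-poor cells. Tmsb4x, the thymosin beta 4 gene, rose by 0.23.

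2610528A11Rik had 94.1, 58.1 and 52.7 CPM with panobinostat, against 238.6, 135.9 and 120.9 CPM with vehicle, without overlap (log2 -1.21, SE 0.19, edgeR adjusted p = 0.036). Car2 had 205.0, 186.0 and 173.0 CPM, against 288.3, 324.7 and 265.3 CPM, also without overlap (log2 -0.56), but its value was 0.77 among cells at or above 1000 per 1000000 and 1.29 among cDC1-poor cells. The 5 erythroid markers held no call for panobinostat, with a median of -0.44 and 0% positive. Their sum was 2451, 1894 and 1534 CPM with panobinostat, against 4013, 2145 and 2947 CPM with vehicle. The part of red cell transcripts in the Car2 call was not tested. Ckap2l and Gstt1 also passed, below the level set for named genes.

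**Figure D5:**
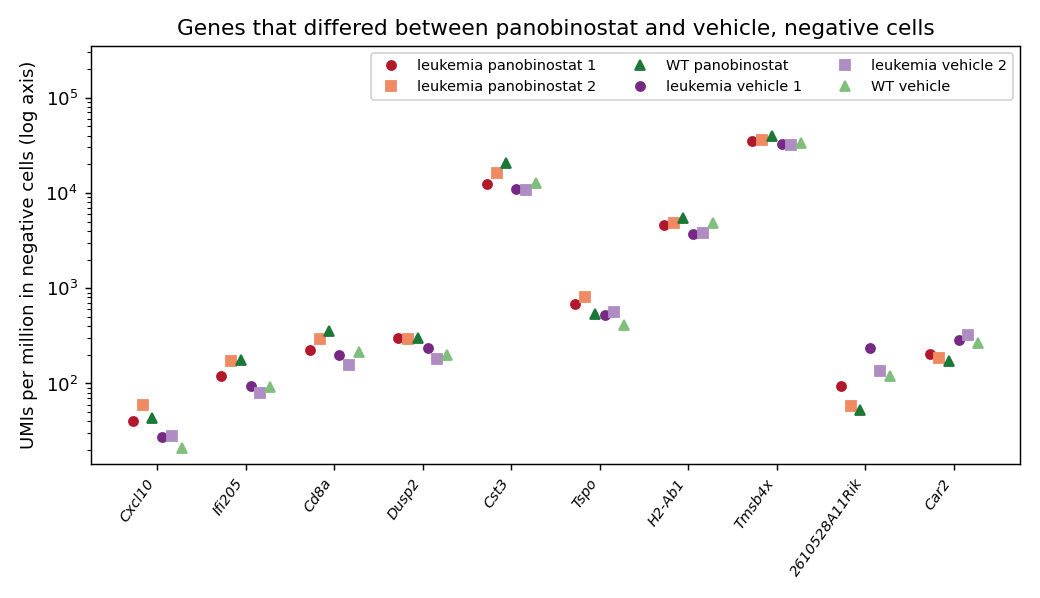
CPM (log axis) in negative cells of each sample for the 10 named genes of panobinostat over vehicle, with panobinostat samples left of vehicle samples. Cxcl10 lies at 40.3 to 59.1 with panobinostat and 21.0 to 28.3 with vehicle, and 2610528A11Rik at 52.7 to 94.1 and 120.9 to 238.6.

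No gene list held more than 1 called gene, set against 10 higher and 2 lower of 10165 genes, a median of -0.0064 and 48.7% positive over all genes. Of 13 MHC class II genes, 1 rose (median 0.24, 84.6% positive), and the 15 MHC class I genes had a median of 0.16 with none called. Of 11 chemokine genes, 1 rose. Of 37 interferon-stimulated genes, 1 rose (median 0.12). Of 14 cDC1 markers, 1 rose (median 0.49), and the cDC1 marker sum was 2081, 2754 and 3538 CPM in leukemia panobinostat 1 and 2 and WT panobinostat, against 2116, 2017 and 2377 CPM in leukemia vehicle 1 and 2 and WT vehicle. Cd8a is itself 1 of the 14 markers in this sum. In leukemia panobinostat 1 the sum lay below that of leukemia vehicle 1, while Cd8a and Cst3 lay above their values there. The part of cell make-up in the Cst3 and Cd8a calls was not tested. The 30 maturation and migration genes (median -0.14) and the 11 histone deacetylase genes held no call. Neither did the 15 genes reported to respond to deacetylase inhibitors (median -0.02). The 24 cell cycle genes held no call either, but 95.8% of them had a positive value (median 0.31). In positive cells the same fit called 1 gene, Lgals1 (log2 1.35). The difference in the panobinostat effect between negative and positive cells was itself tested, and 3 of 10343 genes passed (0.029%), Serpinb6b with a higher effect in negative cells (0.00967%) and S100a10 and Capg with a lower one (0.0193%). At an unadjusted p under 0.05 it was 3.69%.

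The effect of panobinostat in leukemia was set against that in WT in the same model with an interaction term, and 9 of 10666 genes passed (0.0844%), 6 with a higher effect in leukemia (0.0563%) and 3 with a lower one (0.0281%), with 6.82% at an unadjusted p under 0.05. Among the markers of mature cells, H2-M2 had 204.5 and 182.2 CPM in leukemia panobinostat 1 and 2, against 183.6 and 203.4 CPM in leukemia vehicle 1 and 2, and 139.3 CPM in WT panobinostat, against 347.2 CPM in WT vehicle. The difference of effects was 1.33 on the log2 scale (SE 0.20, edgeR adjusted p = 0.0031). It rests on 1 WT sample per treatment. Ccl4, with 626.3 and 575.9 CPM in leukemia panobinostat, against 453.9 and 427.7 CPM in leukemia vehicle, and 114.4 CPM in WT panobinostat, against 157.6 CPM in WT vehicle, passed as well (0.91, edgeR adjusted p = 0.048).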

How the data were processed

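The authors deposited UMI counts as 1 matrix of genes, antibody tags and hashtags by barcode, per the file headers. The submitters' processing notes name Cell Ranger 3.1.0, Seurat 3.1.0 and the builds mm10 and GRCm38, without saying what each was used for. Conditions were read from the hashtag names.

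UMIs of negative cells were summed per hashed sample, filtered with filterByExpr, scaled with TMM and tested with edgeR 4.0.16 (R 4.3.3, quasi-likelihood, Benjamini-Hochberg over all genes, threshold 0.05), with disease and treatment as terms. The comparison of negative with positive cells had the sample as a block. DESeq2 1.42.0 was an alternative. CPM are UMIs per 1000000 of the summed total. Shares and tags used exact permutation tests (scipy 1.17.1). Intervals cover counting error only. Simulated counts with 100 genes changed by log2 1 gave back 81% for panobinostat, 74% for leukemia and 90% for the class comparison, and 98%, 97% and 100% at log2 2. Unchanged genes called by mistake numbered 6, 14 and 8. Every simulated gene had the same spread between samples, so these rates need not hold for real genes or samples that vary more.

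The cells, gene lists and tests were chosen with earlier results of these data known. Named genes were the largest changes past the threshold with a mean of 20 CPM or more, up to 10 each way without overlap between treatments within leukemia or between leukemia and WT samples, and 12 each way with 1 sign in every sample for the class comparison, plus the 4 genes of smallest p in each list. Other genes are named where a count of 7 or fewer is spelled out, chosen after their values were seen. Promoters came from RefSeq. Of the list symbols, 2 were not in the file. Biological variation between samples (common coefficient) came to 9.46% in negative cells and 7.02% in the class comparison.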

Additional observations from a re-analysis of the deposited data

Results flagged for a closer look

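In 3 of the 52 groups of sample values examined, 1 sample stood apart from the others by Dixon's criterion, which chance gives in about 5% of groups. All 3 concern the log2 ratio of negative to positive cells. 2610528A11Rik was at 3.86 in leukemia vehicle 1, Mdk at 5.08 in leukemia vehicle 2, where positive cells held no Mdk UMI, and Nudt9 at -1.57 in leukemia vehicle 2. Leukemia vehicle 2 had the fewest positive cells (49).

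In 9 genes the log2 effect of panobinostat in leukemia minus that in WT passed the interaction test in negative cells (edgeR, adjusted p under 0.05), each resting on 1 WT sample per treatment. The differences were -6.14 for the complement gene C1qa, -1.68 for the lysozyme gene Lyz2, 3.002 for the antibody light chain gene Iglc3, 1.33 for H2-M2, 1.32 for the early response gene Egr1, 2.38 for 2900052N01Rik, -3.82 for the Notch ligand gene Dll4, 0.91 for Ccl4 and 1.96 for the Wnt antagonist gene Dkk2. C1qa stood at 0.78 and 0.34 CPM in leukemia panobinostat 1 and 2, against 6.88 and 1.82 CPM in leukemia vehicle 1 and 2, and at 31.6 CPM in WT panobinostat, against 3.97 CPM in WT vehicle. Iglc3 stood at 10.6 and 9.97 CPM in leukemia panobinostat, against 12.9 and 7.30 CPM in leukemia vehicle, and at 6.95 CPM in WT panobinostat, against 61.0 CPM in WT vehicle. Cells with 5 or more Siglech UMIs carried 833.3 CPM of Iglc3. Macrophage markers summed to 212.6 CPM in WT panobinostat and 111.2 CPM in WT vehicle, and their part was not tested.

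In 3 genes the effect of panobinostat differed between negative and positive cells by the test of that difference (edgeR, adjusted p under 0.05). Its log2 value in negative minus positive cells was -1.11 for S100a10, -1.08 for the actin-capping gene Capg and 0.60 for Serpinb6b. S100a10 stood at 49.89, 55.01 and 47.19 CPM with panobinostat, against 66.7, 83.9 and 63.7 CPM with vehicle, in negative cells, and at 135.6, 86.8 and 122.4 CPM, against 80.0, 60.8 and 68.7 CPM, in positive cells. None of these 3 was among the 3 genes called at or above 1000 Ccr7 and Fscn1 UMIs per 1000000.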

How the results depend on the processing

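The counts of genes past the threshold moved most for panobinostat. Against 12 genes, 325 passed with no filter on low counts, 0 with no scaling beyond library totals (1237 at an unadjusted p under 0.05), 24 with cells thinned to 2000 UMIs, 0 at a hashtag ratio of 10 (758 unadjusted), 22 with 5 or more Ccr7 and Fscn1 UMIs, 89 among cDC1-rich cells and 19 with DESeq2, and leaving out each sample in turn gave 0 to 413. For leukemia over WT, against 224, 554 passed with no filter, 122 at or above 1000 Ccr7 and Fscn1 UMIs per 1000000, 68 among cDC1-rich and 71 among cDC1-poor cells and 149 with DESeq2, and leaving out each sample gave 87 to 382. For negative over positive cells, against 1334, 782 passed with thinned cells, 815 without other-lineage cells, 758 and 728 among cDC1-rich and cDC1-poor cells and 780 with DESeq2, and leaving out each sample gave 895 (without WT vehicle) to 1468. The treatment by disease count was 32 in place of 9 at or above 1000 per 1000000, and the class by treatment count was 1 in place of 3 with RLE scaling. The Ccr7 and Fscn1 level, cDC1 and library-total settings, and both of these fits' alternatives, were added after the data were seen. With a lone WT sample in an arm, that sample is assumed to vary like the others.

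Directions turned in these cases, in log2 units. For panobinostat, Cxcl10 was -0.047 without other-lineage cells and -0.14 among cDC1-rich cells, Tmsb4x -0.043 among cDC1-poor cells, and Car2 0.77 at or above 1000 per 1000000 and 1.29 among cDC1-poor cells. For leukemia among cDC1-poor cells, Gm34084 was 0.24, Havcr2 0.10, Il27 -0.52 and Ifngr1 0.054. For negative over positive cells among cDC1-poor cells, Fam26f was 0.56, H2-Ab1 0.076, Calr 0.052 and Hsp90b1 0.091. At 4000 to 10000 UMIs, H2-Ab1 was 0.088, Hsp90b1 0.13, Birc2 -0.018 and Relb -0.032, and among cDC1-rich cells Birc5 was -0.018. The CD11c difference became 554.3 at 4000 to 10000 UMIs (exact permutation p = 0.03125) and that of Siglec-H 3.17 tag counts. The cause was not tested.

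Leukemia samples share replicate numbers 1 and 2, which only name them. Deviations from the group mean correlated at 0.044 between same-numbered samples. With 2 samples per group this value must be the same for both numbers, so it is 1 check and cannot exclude pairing. No pairing was assumed. With the number as a replicate block, 11 genes passed for panobinostat, 8 of them among the 12.

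Of 138 named results, 138 kept direction and threshold with RLE scaling and with no filter, 131 with DESeq2 and 116 to 135 with 1 sample left out. Fewer did so at or above 1000 per 1000000 (110), without other-lineage cells (108), among cDC1-rich cells (91, with 42 no longer past the threshold and 2 turned) and among cDC1-poor cells (75, with 47 no longer past it and 10 turned).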
